A study of Mus musculus with 3 samples.

Results

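Corticosteroid receptors, their chaperones and the genes of corticotropin-releasing hormone (CRH) signalling were measured in RNA held by tagged ribosomes of the mouse cortex-amygdala transition zone. The 9 genes were taken by symbol from the 32531 genes counted in each library. They are the receptor genes Nr3c1 and Nr3c2, the chaperone genes Fkbp4 and Fkbp5, the steroid enzyme gene Hsd11b1, and Crh, Crhbp, Crhr1 and Crhr2. All 9 symbols were found. The 3 libraries, called replicates 1, 2 and 3, came from adult, untreated control mice of the transgenic line OI82. These mice express EGFP fused to the ribosomal protein L10a from regulatory DNA of Lypd1. Antibodies to EGFP pull down polysomes from the cells that carry the tag (translating ribosome affinity purification, TRAP). The libraries form 1 group, and without unpurified RNA beside them their values say nothing of enrichment.

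Mice use corticosterone as their main glucocorticoid. It binds the glucocorticoid receptor, encoded by Nr3c1, and with higher affinity the mineralocorticoid receptor, encoded by Nr3c2. Both receptors wait in the cytoplasm in a complex with the chaperone Hsp90, where the immunophilin Fkbp5 lowers hormone binding and Fkbp4 assists it and links the complex to the dynein motor. Fkbp5 is itself induced by glucocorticoids, which closes a feedback loop. CRH, a peptide made in the hypothalamus and in extended amygdala and cortical neurons, acts on the receptor Crhr1, while Crhr2 responds best to the urocortins and Crhbp sequesters CRH outside the cell.

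The libraries held 8668527 to 24690301 counts assigned to genes, with the least in replicate 3. Levels are given in CPM, a gene's counts scaled to the assigned total of its library. The 9 members were compared with each other per kilobase of exons, except where another length or none is stated. Genes of other lists are named as those with the highest mean CPM of their list, which is not corrected for length and gives no order of levels. Values are the mean ± SD over 3 libraries. The sources used here do not say whether mice were pooled, so the spread is that between libraries and may be partly technical. Neuronal markers were strongly present, with Snap25 at 9016 ± 3618 CPM, Map2 at 1059.8 ± 45.6 CPM and Syn1 at 954 ± 290 CPM. The replicates differed in markers of other cells. The sum of 6 astrocyte markers was 1748, 1135 and 1163 CPM in replicates 1, 2 and 3, and that of 6 mural cell and fibroblast markers was 153, 48.4 and 40.6 CPM. The nuclear RNAs Malat1, Meg3 and Neat1 together made up 56610, 28340 and 129316 CPM, and reads outside counted features made up 31.4%, 25.6% and 45.3% of all entries. Both measures were highest in replicate 3.

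Promoter sequences were available for 7 of the 9 genes in RefSeq (GRCm38.p6), as windows of 300 bases that start 250 bases before a RefSeq transcription start. The annotated spans of Fkbp5, Hsd11b1 and Nr3c2 begin upstream of their windows, and sequence at other starts was not examined. Of the 7 windows, 4 are shown in the direction of transcription. Crhr1, Crhr2 and Crhbp are shown because all 3 were highest in the same library, and Fkbp5 because it is the hormone-induced member. Capitals mark the GC box GGGCGG and the TATA box TATAAA, each searched on both strands.

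Fkbp5 promoter, chr17:28486100-28486399, minus strand: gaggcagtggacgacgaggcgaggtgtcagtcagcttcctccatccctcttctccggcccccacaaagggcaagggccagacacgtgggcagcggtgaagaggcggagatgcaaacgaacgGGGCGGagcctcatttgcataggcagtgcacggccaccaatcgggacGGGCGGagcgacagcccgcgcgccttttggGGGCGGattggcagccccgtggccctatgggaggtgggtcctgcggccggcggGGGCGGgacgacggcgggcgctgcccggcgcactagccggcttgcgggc
Crhr1 promoter, chr11:104132531-104132830, plus strand: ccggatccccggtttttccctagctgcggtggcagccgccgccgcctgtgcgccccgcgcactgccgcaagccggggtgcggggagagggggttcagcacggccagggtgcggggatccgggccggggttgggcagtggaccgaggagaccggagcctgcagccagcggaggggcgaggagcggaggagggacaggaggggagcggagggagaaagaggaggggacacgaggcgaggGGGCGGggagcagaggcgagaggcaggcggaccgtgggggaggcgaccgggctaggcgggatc
Crhr2 promoter, chr6:55132967-55133266, minus strand: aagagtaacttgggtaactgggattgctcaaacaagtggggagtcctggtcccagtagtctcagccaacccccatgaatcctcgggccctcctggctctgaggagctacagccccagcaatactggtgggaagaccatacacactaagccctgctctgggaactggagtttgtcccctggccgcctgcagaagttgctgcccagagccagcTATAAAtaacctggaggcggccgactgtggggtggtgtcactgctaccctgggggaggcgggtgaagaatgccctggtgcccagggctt
Crhbp promoter, chr13:95444782-95445081, minus strand: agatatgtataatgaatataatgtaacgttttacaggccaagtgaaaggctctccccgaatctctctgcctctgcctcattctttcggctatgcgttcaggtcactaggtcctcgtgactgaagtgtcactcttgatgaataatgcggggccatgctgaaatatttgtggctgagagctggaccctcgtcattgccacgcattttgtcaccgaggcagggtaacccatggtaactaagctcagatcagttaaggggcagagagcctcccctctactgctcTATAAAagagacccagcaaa

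The windows of Crhr1, Crhr2 and Crhbp differed in CpG count and in the kind or place of the marked motifs, and Crh had no window. The Crhr1 window was rich in CpG, with 31 CpG dinucleotides and a GC box that begins 13 bases before the start. The Crhr2 window held 5 CpG dinucleotides and a TATA box that begins 39 bases before the start. The Crhbp window held 9 CpG dinucleotides. Its TATAAA begins 31 bases after the RefSeq start, within the transcribed sequence, and is given as a match of letters only. The annotated Crhbp span begins at position 95444924, inside the window and upstream of that start. Fkbp5 carried 32 CpG dinucleotides and 4 GC boxes, and the windows of Fkbp4 and Nr3c2 carried 3 GC boxes each, with 33 and 17 CpG dinucleotides. The Hsd11b1 window had 6 CpG dinucleotides and neither motif. Over all 32851 windows the median was 7 CpG dinucleotides, 35.7% held GGGCGG and 13.6% held TATAAA. The hexamer AGAACA, bound by corticosteroid receptors, was in none of the 7 windows on either strand and in 19.0% of all windows.

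Per kilobase of exons Fkbp4, Nr3c1 and Nr3c2 lay around or above the middle of detected genes, and Fkbp5, Hsd11b1 and the CRH genes lay below it. At 1 CPM or more in each library 6 of 9 members were detected, against 39.3% of all 32531 genes and 61.5% of the 20785 genes that had any count. The members' share is near the latter background. Detected in every library were Nr3c1, Nr3c2, Fkbp4, Fkbp5, Hsd11b1 and Crhr2. Crhr1 fell short of 1 CPM in replicate 1, Crhbp in replicate 2 and Crh in all 3. The median of the 9 members was 6.86, 2.997 and 8.42 CPM in replicates 1, 2 and 3, beside 7.23, 6.36 and 9.11 CPM for the 20785 genes. In bulk RNA, fewer cells with a transcript and less of it per cell cannot be told apart.

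**Figure D1:**
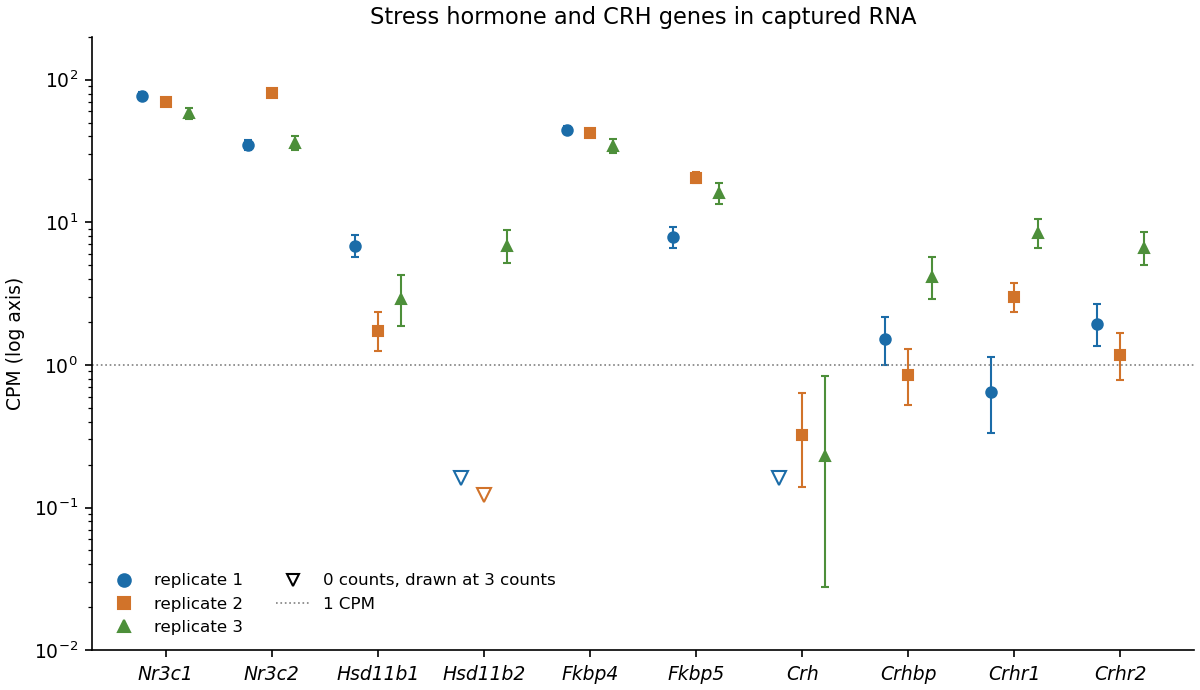
CPM of the 9 members and of Hsd11b2 in each library, on a log axis, with exact (Clopper-Pearson) 95% binomial intervals that cover counting error alone. Open triangles stand for 0 counts, drawn at the level of 3 counts. Nr3c1 and Fkbp4 stayed within narrow ranges, Nr3c2 stood apart in replicate 2, and Crhr1, Crhr2 and Crhbp were highest in replicate 3.

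Nr3c1, the glucocorticoid receptor gene, measured 77.3, 70.1 and 58.4 CPM in replicates 1, 2 and 3, a mean of 68.6 ± 9.55 CPM. The libraries lay close together. Per kilobase it stood at the 66.7th, 64.8th and 57.8th percentile of the 11741 detected genes with a known exon length. The gene is ENSMUSG00000024431.15, with 7684 exon bases.

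Nr3c2, the mineralocorticoid receptor gene, measured 35.0, 80.3 and 35.8 CPM, a mean of 50.4 ± 25.9 CPM. Replicates 1 and 3 were nearly equal and replicate 2 was more than their sum. Its percentile per kilobase was 47.8, 72.9 and 46.3 in the same order. Of 6 neuronal markers 3 were highest in replicate 2, among them Snap25 at 7606, 13127 and 6317 CPM, and 3 in replicate 1, and their median was 843, 828 and 553 CPM. Of 5 glutamatergic markers 3 were highest in replicate 2, with a sum of 2552, 4119 and 2816 CPM, most of it Camk2a, and a median of 127, 110.04 and 76.8 CPM. The part of these differences in the Nr3c2 value was not tested. Nr3c2 (ENSMUSG00000031618.13) spans positions 76899442 to 77245012 on the plus strand of chromosome 8 in GRCm38. It shares 247 exon bases with Gm10649 on the opposite strand. That gene held 15, 38 and 8 counts against 649, 1982 and 310 for Nr3c2, and the strand setting of the counting was not given in the sources used here.

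Which of both corticosteroid receptors had the higher level depended on the library. Per kilobase of exons Nr3c1 reached 8.93 and Nr3c2 7.78 CPM on average. The ratio of Nr3c1 to Nr3c2 per kilobase was 1.86 in replicate 1 (95% interval 1.69 to 2.04), 0.736 in replicate 2 (0.689 to 0.785) and 1.38 in replicate 3 (1.19 to 1.59). These intervals cover counting error alone. On the scale of log2(CPM per kb + 0.1) the difference Nr3c1 minus Nr3c2 was 0.30 ± 0.67, positive in 2 of 3 libraries and smaller than its spread. Flipping signs over the 3 libraries (exact permutation test, two-sided) gave p = 0.5, and 0.5 after Benjamini-Hochberg adjustment over 5 gene pairs. That test cannot give a p below 0.25 with 3 libraries. Without replicate 2 the difference was 0.67 ± 0.30, and without replicate 1 it was 0.0071 ± 0.630.

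Fkbp4, the immunophilin that assists receptor transport, measured 44.3, 42.2 and 34.4 CPM, a mean of 40.3 ± 5.23 CPM. It was the highest of the 9 members per kilobase, at the 78.4th, 77.4th and 73.6th percentile of detected genes. Fkbp5, the glucocorticoid-induced immunophilin, measured 7.88, 20.6 and 16.0 CPM, a mean of 14.8 ± 6.43 CPM, at the 8.14th, 25.1st and 13.5th percentile per kilobase. Replicate 1 was the lowest library for Fkbp5 and the highest for Fkbp4, so the gap between both genes was widest there. Fkbp4 (ENSMUSG00000030357.10) lies on the minus strand of chromosome 6 at positions 128429735 to 128438677, and Fkbp5 (ENSMUSG00000024222.17) on the minus strand of chromosome 17 at 28399094 to 28517527.

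Fkbp4 exceeded Fkbp5 in every library. Per kilobase the ratio of Fkbp4 to Fkbp5 was 19.0 in replicate 1 (95% interval 16.0 to 22.9), 6.94 in replicate 2 (6.24 to 7.73) and 7.26 in replicate 3 (5.92 to 8.95). The log2 difference was 3.21 ± 0.77, larger than its spread and positive in 3 of 3 libraries (exact permutation p = 0.25, the smallest possible, adjusted p = 0.5). Its size rests on the length used for Fkbp5, whose exons cover 9468 bases together but 3858 in the longest transcript. With longest transcripts the difference was 2.04 ± 0.80, and with no length correction 1.53 ± 0.82, again positive in 3 of 3 libraries.

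**Figure D2:**
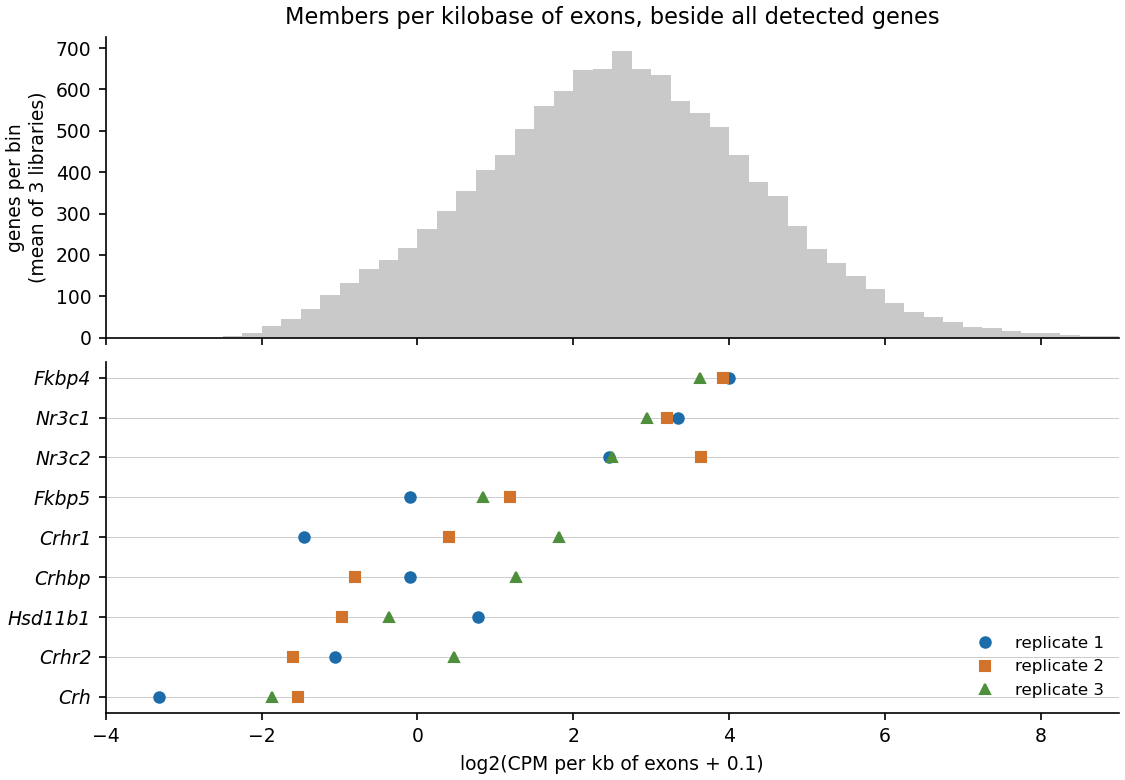
Levels of the 9 members per kilobase of exons, as log2(CPM per kb + 0.1), in each library (lower panel), below a histogram of the 11741 detected genes with a known length, averaged over the 3 libraries (upper panel). Fkbp4, Nr3c1 and Nr3c2 lie around and above the middle of the histogram, and the other 6 members lie on its lower side.

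By mean log2 level per kilobase the order was Fkbp4, Nr3c1, Nr3c2, Fkbp5, Crhr1, Crhbp, Hsd11b1, Crhr2 and Crh. Neighbours were separated by more than their spread at 3 places. Fkbp4 exceeded Nr3c1 by 0.69 ± 0.03 on the log2 scale and Nr3c2 exceeded Fkbp5 by 2.22 ± 0.50, each in 3 of 3 libraries. The lead of Fkbp4 rests on the length correction, with 2795 exon bases against 7684 for Nr3c1. In CPM Nr3c1 was the higher in every library, at 77.3, 70.1 and 58.4 against 44.3, 42.2 and 34.4. Crhr2 exceeded Crh by 1.51 ± 1.37, in 2 of 3 libraries. Nr3c1 and Nr3c2 did not differ beyond their spread, nor did any neighbours from Fkbp5 down to Crhr2. With longest transcripts Hsd11b1 moved up to the fifth place, and the order of the other 8 was as before.

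Hsd11b1, the enzyme that regenerates active corticosterone from its inert keto form, measured 6.86, 1.74 and 2.88 CPM, a mean of 3.83 ± 2.68 CPM. Its percentile per kilobase was 17.5, 2.96 and 3.47. Replicate 1 stood above both others. That library also had the highest sum of the astrocyte markers, of which 5 of 6 were highest there. The mural cell and fibroblast, GABAergic and cholinergic sums were highest there too, with 5 of 6, 4 of 5 and 3 of 3 markers. The neuronal, glutamatergic and endothelial sums were highest in replicate 2, and the interneuron sum in replicate 3. The 6 oligodendrocyte lineage markers summed to 249.8, 200.2 and 184 CPM, but their median was 12.1, 21.6 and 26.6 CPM and 3 of 6 were highest in replicate 1. The 6 microglial markers summed to 39.7, 20.2 and 28.3 CPM, with Cx3cr1 at 19.8, 0.486 and 2.88 CPM the only 1 highest in replicate 1 and 4 of 6 highest in replicate 3. Of the 18 glial markers, C1qa alone had 0 counts in a library. The part of any of these cell types in the Hsd11b1 level was not tested. Hsd11b1 (ENSMUSG00000016194.14) lies on chromosome 1 at positions 193221634 to 193264075 of the minus strand.

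The opposing enzyme gene Hsd11b2, which inactivates corticosterone and is not among the 9 members, had 0, 0 and 59 counts, or 6.81 CPM in replicate 3. The exact 95% upper bound of its level was 0.199 CPM in replicate 1 and 0.149 CPM in replicate 2. The floor of 3 counts lay below these bounds, at 0.162 and 0.122 CPM. With Hsd11b2 set to that floor, Hsd11b1 was 18.3-fold higher per kilobase in replicate 1 and 6.20-fold higher in replicate 2. These ratios leave out the counting error of Hsd11b1 and are not lower limits. In replicate 3 Hsd11b2 was 5.45-fold higher than Hsd11b1, with a 95% interval of 3.36 to 9.09 from counting error. The difference Hsd11b1 minus Hsd11b2 was 1.39 ± 3.30 on the log2 scale, smaller than its spread (exact permutation p = 0.5, adjusted p = 0.5). It was 3.22 without replicate 3 and 0.03 without replicate 1.

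Crh, the gene of the CRH peptide, had 0, 8 and 2 counts. Its level was 0.324 CPM in replicate 2 (95% interval 0.140 to 0.638) and 0.231 CPM in replicate 3 (0.0279 to 0.833). In replicate 1 the interval was 0 to 0.199 CPM. By its counts Crh was under the 3-count floor in replicates 1 and 3, and its interval lay above that floor in replicate 2. It was the only member with a mean under 1 CPM and was left out of the test of variation. Crh (ENSMUSG00000049796.4) lies on chromosome 3 at positions 19693401 to 19695396 of the minus strand.

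Crhbp, the secreted protein that binds CRH, measured 1.51, 0.851 and 4.15 CPM from 28, 21 and 36 counts, a mean of 2.17 ± 1.75 CPM. Its percentile per kilobase among detected genes was 8.22, 3.90 and 19.6. Its 95% intervals from counting error alone were 1.004 to 2.18, 0.526 to 1.30 and 2.91 to 5.75 CPM in replicates 1, 2 and 3. With Crh set to the 3-count floor, Crhbp was 6.84-fold higher per kilobase in replicate 1, which is not a lower limit. The ratio was 1.93 in replicate 2 (0.819 to 5.03) and 13.2 in replicate 3 (3.40 to 113). The log2 difference Crhbp minus Crh was 2.36 ± 1.42 and positive in 3 of 3 libraries (exact permutation p = 0.25, the smallest possible, adjusted p = 0.5). Since Crh had 0 to 8 counts, the size of this difference depends on the pseudocount and ran from 0.87 to 3.66 over pseudocounts of 1 and 0.01 CPM per kb. Crhbp (ENSMUSG00000021680.8) lies on chromosome 13 at positions 95431371 to 95444924 of the minus strand.

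Crhr1, the main receptor of CRH in the forebrain, measured 0.648, 2.997 and 8.42 CPM from 12, 74 and 73 counts, a mean of 4.02 ± 3.99 CPM. Per kilobase it stood at the 0.937th, 14.1st and 30.3rd percentile of detected genes. The 3 intervals from counting error were 0.335 to 1.13, 2.35 to 3.76 and 6.60 to 10.6 CPM. Such intervals leave out all other spread between libraries. Crhr2, the receptor that prefers urocortins, measured 1.94, 1.17 and 6.58 CPM from 36, 29 and 57 counts, a mean of 3.23 ± 2.92 CPM, at the 2.30th, 0.826th and 9.42nd percentile. Replicate 3 was highest for both receptors, but the lowest library was replicate 1 for Crhr1 and replicate 2 for Crhr2. Crhr1 (ENSMUSG00000018634.10) spans positions 104132855 to 104175523 on the plus strand of chromosome 11, and Crhr2 (ENSMUSG00000003476.16) spans 55090049 to 55133016 on the minus strand of chromosome 6.

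The order of both CRH receptors was not the same in each library. Per kilobase the ratio of Crhr1 to Crhr2 was 0.693 in replicate 1 (95% interval 0.328 to 1.36), 5.31 in replicate 2 (3.41 to 8.46) and 2.66 in replicate 3 (1.86 to 3.83). The log2 difference was 0.98 ± 1.24, smaller than its spread (exact permutation p = 0.5, adjusted p = 0.5). It was 1.67 ± 0.46 without replicate 1, 0.47 without replicate 2, and 0.30 ± 1.26 with longest transcripts.

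**Figure D3:**
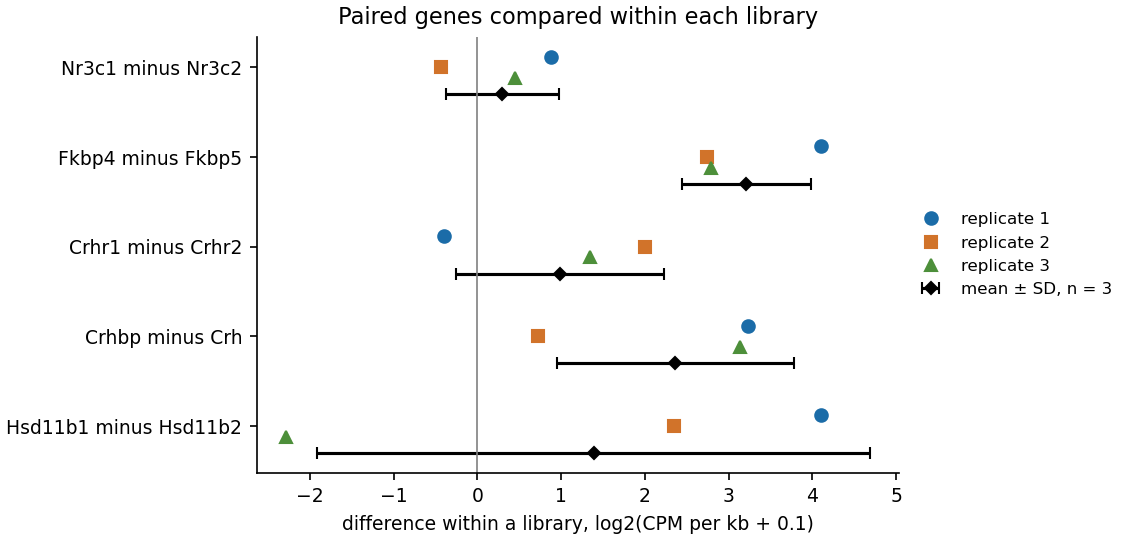
Differences within each library between paired genes, in log2(CPM per kb of exons + 0.1), with the mean and SD of 3 libraries. Fkbp4 minus Fkbp5 and Crhbp minus Crh lay above 0 in all 3 libraries, and the other pairs changed sign with the library.

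Variation of each gene between the libraries was tested with edgeR against the trend of dispersion over all 15336 genes whose mean reached 1 CPM. That trend was taken from these same libraries, so a call marks only a gene that spread more than genes of its level usually did. None of the 8 members tested was called (0 of 8 at an adjusted p below 0.05, and 0 of 8 at an unadjusted p below 0.05), against 0.222% of all tested genes by adjusted p and 7.09% by unadjusted p. The test had little power below 20 CPM on simulated data, so the lack of a call for Fkbp5, Hsd11b1, Crhr1, Crhr2 and Crhbp does not show that their levels were stable. The smallest values among members were an unadjusted p of 0.105 for Nr3c2 (adjusted p = 0.82, edgeR) and of 0.204 for Crhr1 (adjusted p = 0.905, edgeR). Hsd11b2 had an unadjusted p of 0.00101 and missed the threshold (adjusted p = 0.154, edgeR). A p above the threshold does not show that the libraries were equal.

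Members were highest in different libraries. Nr3c1, Fkbp4 and Hsd11b1 were highest in replicate 1, Nr3c2, Fkbp5 and Crh in replicate 2, and Crhr1, Crhr2 and Crhbp in replicate 3. Of all 15336 tested genes 31.6% were highest in replicate 1, 29.2% in replicate 2 and 39.2% in replicate 3. The 3 CRH genes that were highest in replicate 3 had 12 to 74 counts per library. Replicate 3 also had the least depth and the highest nuclear RNA sum and share of reads outside counted features, and the part of these in the 3 genes was not tested. With TMM scaling in place of library totals the 3 genes measured 7.93, 6.19 and 3.91 CPM in replicate 3, still their highest library.

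**Figure D4:**
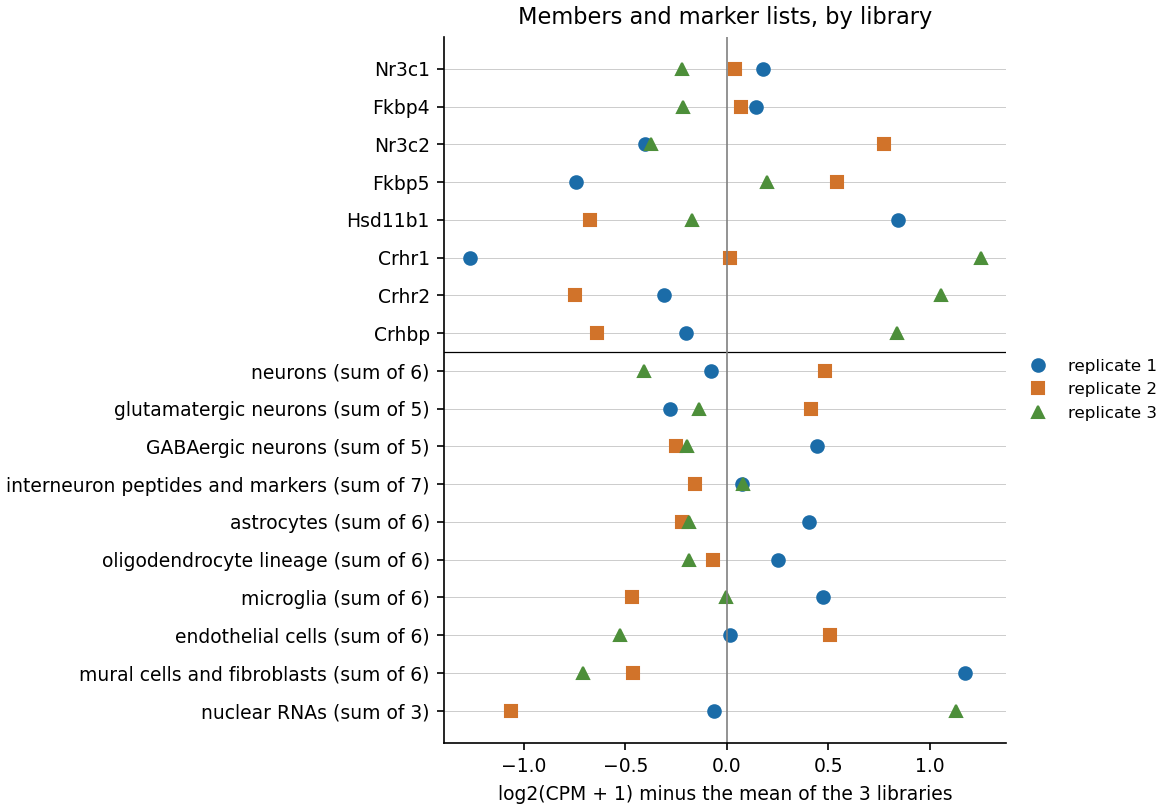
Deviation of each library from the mean of the 3 libraries, in log2(CPM + 1), for 8 members (top) and for summed marker lists (below the line). Replicate 3 was highest for Crhr1, Crhr2, Crhbp and the nuclear RNAs, replicate 1 for Hsd11b1 and the astrocyte and mural sums, and replicate 2 for Nr3c2 and Fkbp5. The neuronal and glutamatergic sums are largely set by Snap25 and Camk2a, and Cx3cr1 is the largest part of the microglial sum in replicate 1 alone. Other markers of those lists and of the oligodendrocyte list were highest in other libraries.

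Among 112 genes of the other lists whose mean reached 1 CPM, those with the most similar pattern were found for the 3 members of widest range. Likeness was the root mean square difference in log2(CPM + 1) after centring, over 3 libraries, which many genes can match. For Crhr1 they were Cspg4, a proteoglycan of oligodendrocyte precursors (difference 0.34), and Sgk1, a kinase induced by glucocorticoids (0.48). For Crhr2 they were the non-coding RNA Meg3 (0.12) and Srd5a1, a steroid reductase (0.19). For Hsd11b1 they were Aldh1l1, a folate enzyme of astrocytes (0.18), and Pdgfrb, a growth factor receptor of mural cells (0.23).

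The wider receptor machinery was present throughout. All 10 chaperones and cochaperones of the receptor complex were detected. By adjusted p 0 of 10 were called as varying (0 of 10 by unadjusted p, edgeR), which does not show stable levels here or in the lists below. Hsp90ab1 and Hsp90aa1, the cytosolic Hsp90 genes, measured 1140.7 ± 323 and 564 ± 166 CPM, and Hspa8, the constitutive Hsp70, 649.8 ± 125 CPM. Likewise 10 of 10 nuclear receptor coregulators were detected, and 0 of 10 were called as varying by adjusted p (0 of 10 by unadjusted p, edgeR). The corepressor Ncor1 measured 425 ± 56.0 CPM, the acetyltransferase Crebbp 297 ± 30.0 CPM and the coactivator Ncoa1 291 ± 34.6 CPM. Of the other NR3 receptors 5 of 7 were detected. They included the progesterone receptor Pgr at 71.0, 66.5 and 33.9 CPM, the estrogen receptor Esr1 at 42.1, 87.5 and 26.4 CPM and the orphan receptor Esrrg at 76.9, 25.6 and 19.6 CPM. Of the 7 receptors, 0 of 7 were called as varying by adjusted p and 3 of 7 by unadjusted p (edgeR). Esr1, like Nr3c2, was highest in replicate 2. Of the 7 receptors 3 were highest in replicate 1, 2 in replicate 2 and 2 in replicate 3.

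Genes known to respond to glucocorticoids were detected for 12 of 12. The transcription factor Klf9 measured 211, 186 and 94.6 CPM, the metallothionein Mt2 210.2, 93.1 and 61.9 CPM and the kinase inhibitor Errfi1 71.5 ± 13.2 CPM. None was called as varying (0 of 12 by adjusted p and 1 of 12 by unadjusted p, edgeR). Of the 12 genes 7 were highest in replicate 1, 1 in replicate 2 and 4 in replicate 3. Fkbp5 was lowest in replicate 1, and so were Sgk1 at 19.2, 38.0 and 51.5 CPM and the phosphatase Dusp1 at 19.4, 31.9 and 35.3 CPM, both chosen after their values were seen. Baseline levels in a single untreated group do not show how far hormone drove any of them.

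Genes of corticosteroid synthesis, metabolism and transport were detected for 5 of 10. The drug efflux pump Abcb1a, which transports corticosteroids at the blood-brain barrier, measured 20.1, 15.0 and 1.62 CPM. Star, the mitochondrial cholesterol carrier, measured 5.67, 17.7 and 11.3 CPM, and H6pd, which supplies the cofactor of Hsd11b1, 6.80 ± 1.03 CPM. The adrenal enzymes Cyp11b1 and Cyp21a1 and the corticosteroid-binding globulin Serpina6 had 0 counts in all 3 libraries. None of the 6 tested genes was called as varying by adjusted p, and 2 of 6 were by unadjusted p (edgeR).

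Ligands of the CRH family other than Crh were nearly absent from the counts. Ucn and Ucn2, which encode urocortins, had 0 counts in all 3 libraries. The exact 95% upper bound of each level was 0.199, 0.149 and 0.426 CPM in replicates 1, 2 and 3. Ucn3 was listed at 0 in replicates 1 and 2 and measured 0.808 CPM in replicate 3. Of the 8 other peptides and receptors of the stress axis 1 was detected, Pomc, the precursor of adrenocorticotropic hormone, at 3.67, 1.17 and 3.69 CPM, while Avp, the vasopressin gene, measured 3.99, 1.05 and 0.461 CPM. Neither of these 2 was called as varying by adjusted or unadjusted p (0 of 2, edgeR), and the others were too low to test. Downstream partners of the CRH receptors were all detected (10 of 10). They included Gnas, the stimulatory G protein, at 1457 ± 397 CPM, the protein kinase A subunit Prkaca at 320 ± 66.3 CPM and the G protein Gnaq at 318 ± 123 CPM. By adjusted p 0 of 10 were called as varying (0 of 10 by unadjusted p, edgeR). These partners serve many receptors.

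Markers of neurons that could hold CRH genes differed in how far they spread over the libraries. The 5 GABAergic markers summed to 665, 411 and 426 CPM, with Gad2, Gad1 and Dlx1 at 356 ± 108, 90.1 ± 32.2 and 25.01 ± 5.23 CPM. The 7 interneuron markers summed to 464, 395 and 465 CPM, with Reln, Cck and Sst at 175 ± 8.23, 149 ± 15.9 and 60.6 ± 15.5 CPM, with Pvalb at 0 in replicate 3. Cholinergic markers summed to 46.9, 0.81 and 2.65 CPM, and Chat was the only gene of the lists called as varying (adjusted p = 0.0268, edgeR). The share of false calls on simulated data was above 0.05, which limits this call. Endothelial markers summed to 35.7, 50.6 and 24.2 CPM.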

How the data were processed

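RNA from immunopurified polysomes was sequenced in 3 libraries of 1 group. The deposited files hold whole-number read counts per gene, not normalized by the authors. Per the submitters' processing notes, alignment used STAR 2.0.0e and the build mm10, and HTSeq gave the counts. Annotation, strand setting and kit are not given in the sources used here. The 5 HTSeq summary classes and a row with no gene name (0 counts) were left out. Reads with more than 1 alignment (16.5% to 32.7% of entries) are not in gene counts. Assigned counts were 18526251, 24690301 and 8668527. The floor set for 0 counts was 3 counts (0.122 to 0.346 CPM). Floor and 95% intervals cover counting error only.

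From the counts, CPM and CPM per kilobase of GENCODE M21 exons were computed (GRCm38, the assembly mm10 names). Lengths were found for 88.8% of tested genes and for every member. Gene pairs were compared within libraries by flipping signs over libraries (exact permutation test, two-sided), with a pseudocount of 0.1 CPM per kb. For variation between libraries, edgeR 4.0.16 (R 4.3.3) fitted 1 mean per gene with trended dispersion after TMM scaling, and the deviance was set against chi-square on 2 degrees of freedom, with Benjamini-Hochberg adjustment at 0.05. Tested on simulated data with genes raised in 1 library, it missed most genes of the smaller planted change and many of the larger below 20 CPM, where Fkbp5, Hsd11b1 and the CRH genes lie. It recovered the larger change well at 20 CPM or more. Both planted changes exceeded the range of every member at 20 CPM or more, at most 2.29-fold (Nr3c2). The pass criterion was narrowed to that level after one over all genes was not met. The share of false calls exceeded 0.05. A quasi-likelihood contrast needs 2 groups and could not be made.

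The members, the 18 gene lists (126 genes, all matched) and the tests were chosen with earlier results of these data known. Named genes are the members, the 3 most abundant genes of each list, list genes called as varying (up to 5) and the nearest patterns. 1 list gene is not reported here and was left out of its list's sum and of the pattern search. Other genes were named after their values were seen. Alternatives were other scalings (DESeq2 1.42.0 size factors, totals), filters, pseudocounts, lengths, a common dispersion and leaving out each replicate.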

Additional observations from a re-analysis of the deposited data

How the results depend on the processing

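The number of members detected was 6, and 8 at 0.5 CPM or on average, 4 at 2 CPM, 6 with TMM scaling and 6 to 7 with 1 replicate left out. No member was called as varying under any of 60 combinations of member and alternative, with a lowest adjusted p of 0.471 (edgeR, common dispersion, Crhr1). Hsd11b2 was called with a common dispersion (adjusted p = 0.000154) and had an adjusted p of 0.14 to 0.351 under the others. The count of varying genes was 34, and 783 with a common dispersion. It was 4 to 24 with 1 replicate left out, at 9 without replicate 1 and 4 without replicate 2, where fewer libraries entered the test. Though some means became very small, the 5 gene pairs kept the sign of their mean log2 difference under all alternatives run. Over these, Nr3c1 minus Nr3c2 ranged from 0.0071 to 0.67, Fkbp4 minus Fkbp5 from 1.53 to 3.44, Crhr1 minus Crhr2 from 0.061 to 1.67, Crhbp minus Crh from 0.87 to 3.66 and Hsd11b1 minus Hsd11b2 from 0.031 to 3.43 on the log2 scale. No paired analysis was possible because there is 1 group. Depth limits Crh, Crhbp, Crhr1 and Crhr2, each with under 75 counts per library. It also limits Hsd11b1, with 127, 43 and 25 counts in replicates 1, 2 and 3.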
